A study of Mus musculus with 12 samples.

Results

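Hdac3-null liver was compared with control liver at postnatal day 17 (P17) on 6 of the 12 arrays of a mouse liver study, chosen by their titles as the 3 arrays of P17 Hdac3-null liver and the 3 of P17 control liver. The 6 arrays carry 4 of the study's 8 RNA pools, and every pool combined liver RNA of 5 mice aged 17 days, labelled C57B/6. In each group the first pool was run as 2 technical replicates, each from its own chip lot, and the second pool once, so n = 2 pools a group. The first control pool came from wild-type mice that carried Albumin-Cre. For the second control pool the sample label gives no genotype beyond control, and the study's design describes controls as wild-type or heterozygous for Hdac3 with Albumin-Cre. The null pools came from Hdac3-null livers. The remaining 6 arrays, of P28 liver (28 days), have the same layout.

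Hdac3 is a histone deacetylase and the catalytic subunit of the NCoR and SMRT corepressor complexes, which nuclear receptors and other transcription factors bring to their target genes. Deacetylation by these complexes keeps target genes low until the receptor is activated, and in liver many such targets serve lipid, steroid and glucose metabolism. The albumin promoter drives Cre mainly in hepatocytes and is also active in their fetal precursors, which give rise to bile duct cells too. P17 lies before weaning, when mouse liver still matures from a suckling to an adult pattern of expression.

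The value table names its probes mostly by Celera mCG identifiers, which the tables used here do not pair with genes. A single gene symbol was found for 316 of 33012 probes. No named probe belongs to Hdac3, so the deletion itself was not checked on these arrays. None of the 7 hepatocyte markers chosen (such as Alb and Apoa1) was named either, and the liver identity of the samples rests on their labels. Signals are given as log2 of the quantile-normalized intensity. A signal of 9.80 on this scale is called the detection level. Where every array of a group lies under it, the probe is described as not well above background in that group.

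Over 12595 probes whose mean lay above the detection level, duplicate arrays of the first pool correlated with r = 0.971 in control and 0.967 in null liver, and the first and second pools of a group with r = 0.929 and 0.930. The first pools and the second pools lie in separate run sets of the deposited values, so pool and run cannot be told apart within a group. Each null-minus-control difference within a pool number lies inside 1 run set. In bulk liver, fewer cells of a type and less RNA per cell cannot be told apart. Precision is limited by having 2 pools a group, and the p-values reflect how far such pools and their run sets differ.

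Across the 12595 probes, the null-minus-control difference between single arrays of the first pools had a standard deviation of 0.76 on the log2 scale for technical replicate 1 and 0.70 for technical replicate 2. Duplicate arrays, also compared singly, differed with a standard deviation of 0.56 in control and 0.60 in null liver. The null-minus-control difference had a standard deviation of 0.70 in the first pools, 0.67 in the second and 0.61 averaged over both. The first and second pools of a group differed by more, with 0.89 in control and 0.88 in null liver. A difference over 2-fold was seen for 9.11% of these probes in the first pools, with duplicates averaged, and 10.1% in the second, on single arrays. Single arrays of the first pools gave 11.6% for technical replicate 1 and 9.52% for technical replicate 2. Between single duplicate arrays it was 3.92% in control and 5.05% in null liver. The differences of the first and the second pools, which share no array, correlated across probes with r = 0.61 (rho = 0.54, n = 12595 probes). This is a description across probes, which are not independent replicates. Of 12253 probes over the detection level on every array of at least 1 P17 group, 72.5% had the same sign in both pools, 3843 higher and 5036 lower in null liver. The median difference of these probes was -0.05.

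**Figure D1:**
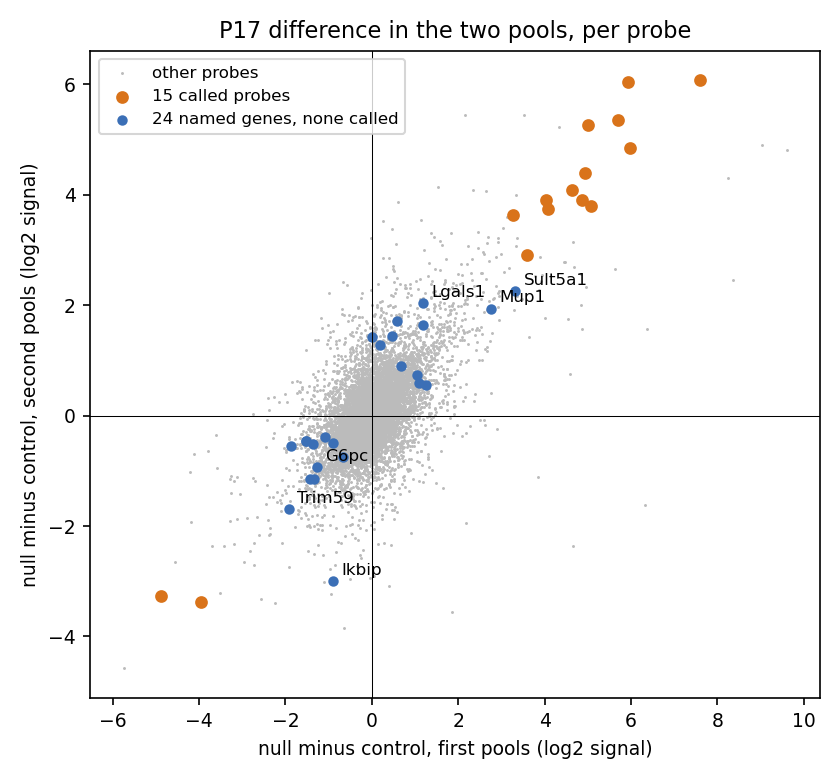
Null-minus-control difference in log2 signal at P17 for each probe in the first pools (horizontal axis) and the second pools (vertical axis). Grey points are probes whose mean lies above the detection level, orange points the 15 probes that passed the test and blue points 24 named genes, none of which passed. The 13 called rises lie at 2.91 or more on both axes.

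In the test across all probes, 15 of 32120 changed with loss of Hdac3 at P17 (limma, adjusted p under 0.05), which is 0.0467% of the probes tested. This test, whose adjusted p-values are given throughout, has no term for pool or run set, although the P17 pools of both genotypes share their run sets by number. With the pool number as a replicate block 5 of the 15 were called and the adjusted p of the 15 ran from 0.019 to 0.071. A block by run set called none (limma adjusted p of 0.150 to 0.260). Either block left fewer residual degrees of freedom than the fit without a block. Under these blocks 2328 and 2609 probes had an unadjusted p under 0.05. Of the 15 probes called without a block, 13 rose (0.0405%) and 2 fell (0.00623%), and none carried a gene symbol. An unadjusted p under 0.05 was found for 1476 probes, or 4.6%, no more than this threshold would pass where nothing changes. At P28 it was found for 9.42%. The rises had log2 changes of 3.25 to 6.84 with a median of 4.43. The 9 measured above background in both genotypes rose 9.53-fold to 63.3-fold, and the 4 with control liver at background by at least 4.00-fold to at least 69.5-fold. With 75th percentile scaling there were 10 calls, all higher in null liver, and on the deposited values with no further normalization 2, also both higher. Both pools moved the same way for each of the 15, by at least 2.91 on the log2 scale. Duplicate arrays of these probes differed by at most 0.81 in control and 0.78 in null liver. The 15 were picked by a test on these same pool values, which favours large differences of 1 sign, so nothing is read from this agreement.

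The largest rise was that of the probe mCG18625. Its log2 signals in control liver were 8.66 and 9.26 on the duplicate arrays of the first pool and 9.21 in the second pool. In null liver they were 16.42, 16.69 and 15.28. All 3 control arrays thus lay under the detection level and all 3 null arrays far above it. The rise was at least 69.5-fold (log2 6.84, SE 0.47, limma adjusted p = 0.011, n = 2 pools), from 7.60 for the first pools and 6.07 for the second.

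The probe mCG129928.1 rose 63.3-fold. It read 12.62, 12.60 and 11.72 in control and 18.46, 18.60 and 17.76 in null liver, where every array was above every control array (log2 5.98, SE 0.48, limma adjusted p = 0.018). Its pool differences were 5.92 and 6.05. The transcript was measured well above background in both genotypes.

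Of the 2 probes that fell, mCG10678.2 read 15.52, 15.40 and 14.74 in control and 10.55, 10.61 and 11.47 in null liver. Its fall was 16.8-fold (log2 -4.07, SE 0.45, limma adjusted p = 0.049), from -4.88 for the first pools and -3.27 for the second. The probe mCG10113.1 read 11.28, 12.09 and 11.18 in control liver. In null liver it was not well above background, at 8.02, 7.45 and 7.80, and fell at least 3.10-fold (log2 -3.67, SE 0.37, limma adjusted p = 0.040).

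The other 11 probes that rose changed by 3.25 to 5.52 on the log2 scale, or 3.28 to 5.98 for the first pools and 2.91 to 5.35 for the second. All 11 lay over the detection level on every null array, with group means of 11.80 to 19.07. For 3 of them control liver was not well above background, and their rises were at least 4.00-fold to 12.8-fold. Among all 15 called probes the first pools gave the larger difference for 12. The arrays of the groups did not overlap for any of the 15, and 26.7% of the 12253 probes over the detection level had groups that did not overlap. The 15 were picked by the test on these same arrays, so nothing is read from their lack of overlap.

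The called probes differed in their levels at P28. Of the 13 that rose in P17 null liver, 12 were also higher in P28 than in P17 control liver. This held within each pool number, although the first pools of P17 and P28 lie in separate run sets. Within the second pools, which share a run set, this age difference ran from -0.32 to 9.68. The lowest value was that of mCG144846, which lay under the detection level in control liver at both ages. The genotype difference at P17 and this age difference both use the P17 control pools, and a value low in those pools raises both, so the levels are given side by side with no test. The probe mCG18625 had group means of 9.08 in P17 control, 15.92 in P17 null, 16.35 in P28 control and 15.92 in P28 null liver. For mCG148051 the means were 10.74, 15.40, 20.77 and 18.54 in the same order, so that P17 null liver lay between the control livers of both ages. A total of 7 of the 13 had a higher mean in P17 null than in P28 control liver and 6 did not. The shares of all probes with these patterns were not computed, so nothing is read from these counts. Both probes that fell at P17 were not well above background in either P28 group.

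**Figure D2:**
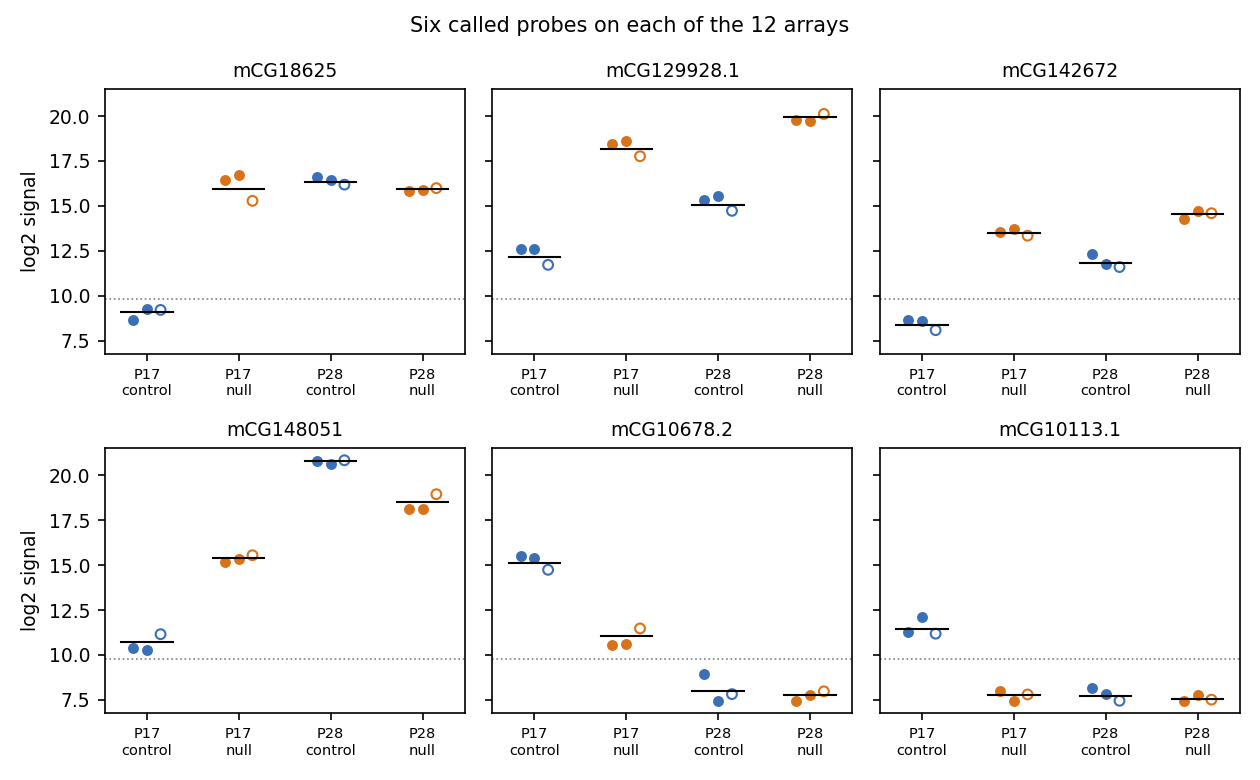
Log2 signal of 6 called probes on each of the 12 arrays by group, with filled points for the duplicate arrays of the first pool, open points for the second pool, bars for the mean of the pools and a dotted line at the detection level of 9.80. In mCG18625 the P17 null arrays (15.28 to 16.69) lie near the P28 arrays of both genotypes, and the 3 P17 control arrays lie under the dotted line.

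Some transcripts crossed the detection level between the genotypes. Of the 32120 probes, 105 were over it on all 3 null arrays and on no control array at P17, and 106 on all 3 control arrays and on no null array. The test called 4 of the former and 1 of the latter. At P28 the same counts were 178 and 126, and 9 of the 105 and 3 of the 106 showed the same pattern at both ages. No symbol was among the 105. Ikbip and 9130023H24Rik were among the 106 and are described with the named genes.

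Of the 309 named probes that were tested, none was called in limma (smallest adjusted p = 0.145). At an unadjusted p under 0.05 there were 13, or 4.21% against 4.6% of all probes, 6 higher and 7 lower in null liver. A total of 130 named probes lay over the detection level on every array of a P17 group, and 88 of them had the same sign in both pools, 47 higher and 41 lower. The genes described next were chosen from these by the size of the difference or from gene lists, and the values are given as measured. None passed the test.

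Enzymes of conjugation and steroid metabolism held the largest named difference. Sult5a1, a cytosolic sulfotransferase, read 11.09, 10.95 and 11.82 in control and 14.45, 14.23 and 14.08 in null liver. Its groups did not overlap, and the difference was 2.79 (SE 0.45, limma adjusted p = 0.145) from 11.42 ± 0.57 to 14.21 ± 0.18 (SD, n = 2 pools). Nat8f2, of the N-acetyltransferase 8 family, read 15.44, 15.09 and 15.86 in control and 16.67, 16.39 and 16.41 in null liver (difference 0.91, SE 0.35). Hsd3b4, of the 3-beta-hydroxysteroid dehydrogenase family, reached the detection level on 1 of 3 arrays in each group and differed by -0.72 (SE 0.83), with pool differences of -1.09 and -0.34. Levels of 10.17 in control and 9.45 in null liver leave its difference at the edge of what the arrays measured.

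Among genes of growth hormone signalling, the Mup1 probe differed most. Major urinary proteins are pheromone carriers secreted by liver, and growth hormone raises their expression through the transcription factor Stat5. Mup1 read 12.56, 12.49 and 13.43 in control and 15.30, 15.26 and 15.36 in null liver, a difference of 2.34 (SE 0.49, limma adjusted p = 0.288). The first pools gave 2.75 and the second pools 1.94. The 3 null arrays lay close together and above all control arrays. Mup genes are near-identical, so the value is uncertain for the single gene. Stat5a differed by 0.78 (SE 0.44), with 0.67 and 0.89 in the pools, and its arrays did not overlap, since the control arrays ended at 11.50 and the null arrays began at 11.80. Stat5b differed by 0.02 (SE 0.43), from 0.32 for the first pools and -0.28 for the second.

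Of the genes of lipid handling, 3 had a named probe and none passed the test. Aldh3a2, the fatty aldehyde dehydrogenase that oxidises long-chain aldehydes, read 14.21, 14.06 and 13.93 in control and 15.46, 15.15 and 15.57 in null liver. The difference was 1.41 (SE 0.33, limma adjusted p = 0.415), and no control array reached the lowest null array. Plin3, a coat protein of lipid droplets, read 12.95, 13.06 and 13.38 in control and 13.96, 14.15 and 14.11 in null liver (difference 0.89, SE 0.33). Its 3 null arrays were also above every control array. Fgf21, a fasting hormone of liver induced by PPAR alpha, differed by 0.71 (SE 0.67), from 0.01 for the first pools and 1.41 for the second. Its null duplicates of the same pool read 9.80 and 11.20, and the groups overlapped.

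Glucose and thyroid hormone metabolism were represented by 1 gene each, and neither passed the test. G6pc, whose enzyme performs the last step of glucose release from hepatocytes, read 18.47, 18.89 and 18.70 in control and 17.23, 17.59 and 17.78 in null liver. The difference was -1.10 (SE 0.35, limma adjusted p = 0.826), with -1.27 and -0.93 in the pools and no overlap. Dio1, the iodothyronine deiodinase that activates thyroid hormone, read 17.12, 17.00 and 16.22 in control and 15.71, 15.73 and 15.07 in null liver. Its second pool was lower than its first in both genotypes, and the differences within a pool number were -1.34 and -1.14 (mean -1.24, SE 0.51).

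Among epithelial and progenitor transcripts the directions were mixed. Lgals1, which encodes the lectin galectin-1 and is also made by stromal and immune cells, read 13.15, 12.69 and 12.88 in control and 14.31, 13.90 and 14.91 in null liver (difference 1.61, SE 0.38, limma adjusted p = 0.448). All null arrays lay above all control arrays. Krt23, a keratin of bile duct and progenitor cells, read 14.16, 14.10 and 14.65 in control and 12.44, 12.09 and 14.10 in null liver. Its lower value lay mainly in the first pools (-1.86 against -0.56 in the second). Lgals7, which encodes galectin-7, differed by 0.32 (SE 0.37) and Wfdc2, which encodes an epithelial secretory protein, by 0.17 (SE 0.59), with -0.06 and 0.40 in the pools.

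**Figure D3:**
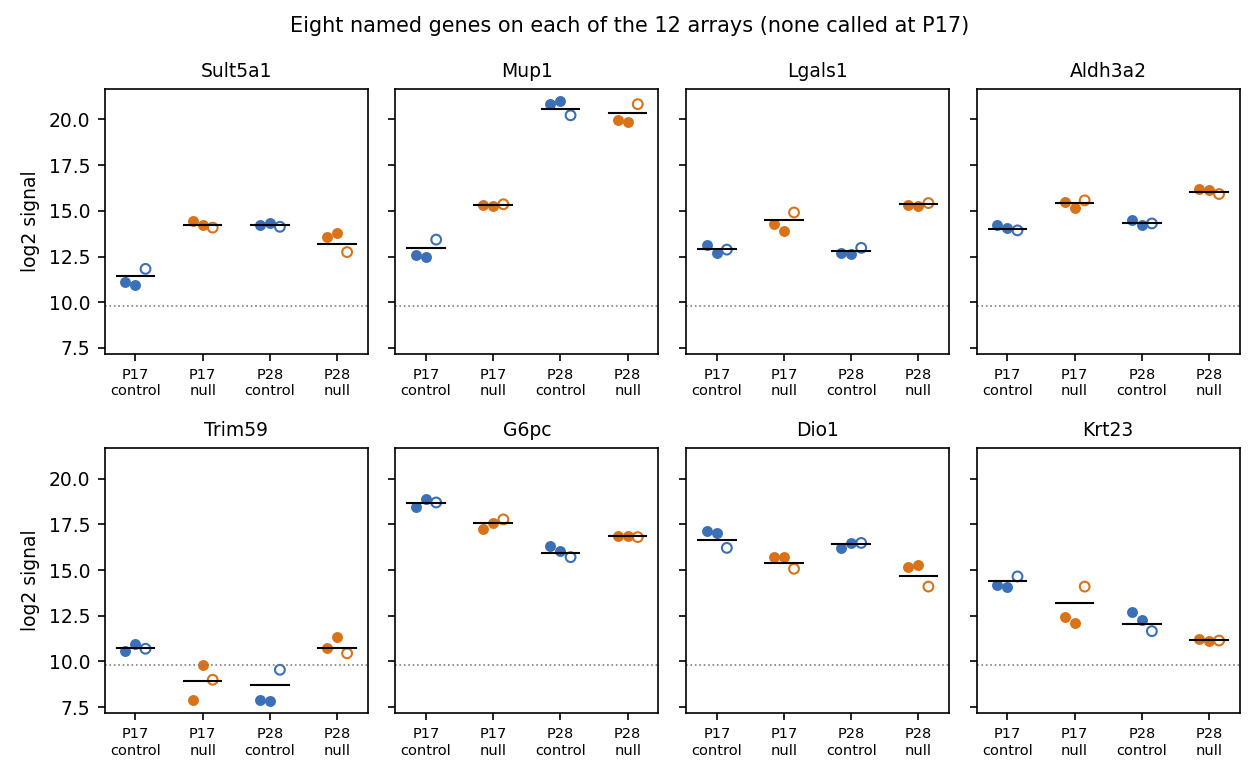
Log2 signal of 8 named genes on each of the 12 arrays by group, with filled points for the first pool, open points for the second pool, bars for the mean of the pools and a dotted line at the detection level of 9.80. Sult5a1 and Mup1 lie higher on all 3 P17 null arrays than on any P17 control array, and G6pc and Dio1 lower; none of the 8 passed the test at P17.

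Markers of other cells were few among the named probes. Of 33 leukocyte and Kupffer cell genes 3 were measured, with summed linear signals of 13015 to 15121 on the control and 14682 to 24575 on the null arrays. Bcl2a1b, of the anti-apoptotic Bcl2 family of leukocytes, read 11.99, 12.17 and 11.94 in control and 12.66, 12.69 and 13.65 in null liver. Its difference was 1.15 (SE 0.53), from 0.59 for the first pools and 1.71 for the second. Ear1, an eosinophil-associated ribonuclease, differed by 0.03 (SE 0.60) and the leukocyte transcript Lst1 by -0.10 (SE 0.33), and each had opposite signs in the pools. Of 19 cholangiocyte and progenitor genes 4 were measured, Krt23, Wfdc2, Lgals1 and Lgals7 (control sums of 29478 to 39872, null sums of 25654 to 57148). Their directions were mixed and Lgals1 is also made by stromal and immune cells, so these sums do not measure 1 cell type. Of 14 erythroid genes only the alpha-globin probe Hba-a1 was measured, and it differed by 0.12 (SE 0.35). No marker of the 18 stellate or 12 endothelial genes was named. The part of these cells in the differences was not tested. Bcl2a1b, Ear1 and Hba-a1 belong to families of near-identical genes.

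Of the transcription factors in the lists, Jun and Cebpb were measured. Jun, an early-response factor, read 13.24, 13.42 and 11.76 in control and 13.57, 14.05 and 13.20 in null liver, so that the groups overlapped (difference 0.96, SE 0.54). The 2 probes of Cebpb, which regulates hepatocyte genes, differed by 0.33 (SE 0.38) and 0.30 (SE 0.50), the second of them with opposite signs in the pools.

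Several genes outside these groups were lower in null liver in both pools. Trim59, a membrane ubiquitin ligase of the tripartite motif family, read 10.56, 10.98 and 10.70 in control and between 7.87 and 9.82 in null liver, where 1 of 3 arrays reached the detection level. The difference was -1.81 (SE 0.55, limma adjusted p = 0.770), and the fold was 1.90 with null arrays under that level raised to it. Ikbip, which encodes a protein that binds the kinase Ikkb, read 10.59, 10.28 and 10.70 in control and was not well above background in null liver, at 9.76, 9.33 and 7.71, at least 1.70-fold lower. The uncharacterised 9130023H24Rik was at least 1.28-fold lower by the same measure. Dcaf12l1, a WD-repeat gene, differed by -1.29 (SE 0.46), and 2 of its 3 null arrays reached the detection level.

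The histone H2B genes H2bc18 and H2bc13 were lower in both null pools, H2bc13 by -0.73 (SE 0.37). In H2bc18 the control arrays read 12.48, 12.80 and 12.25 and the null arrays 10.68, 11.54 and 11.78, with the larger difference in the first pools (-1.53 against -0.47). H2b genes are near-identical, as are class I genes of the major histocompatibility complex such as H2-Q8 (-0.71, SE 0.42), and their values are uncertain for the single gene. The kinase gene Lrrk1 differed by -0.70 (SE 0.46) and the doublecortin-domain gene Dcdc5 by -0.94 (SE 0.46), with 1 of 3 null arrays over the detection level. On the side of higher values, Ddx28, a mitochondrial RNA helicase, differed by 0.84 (SE 0.45), and Grap, a signalling adaptor, by 0.73 (SE 0.45), with 2 of 3 control arrays over the detection level. The Grap difference was 0.18 in the first pools and 1.28 in the second.

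The 24 genes chosen by size ranged from 2.79 to 0.71 above and from -1.94 to -0.70 below zero. The next genes outside the choice stood at 0.70 and -0.55. For 9 of the 12 higher and 10 of the 12 lower genes the 3 null arrays did not overlap the 3 control arrays. Among the 12253 probes over the detection level, 12.3% were higher and 14.4% lower without overlap, but the genes were picked for large differences with 1 sign in both pools, so nothing is read from the counts.

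**Figure D4:**
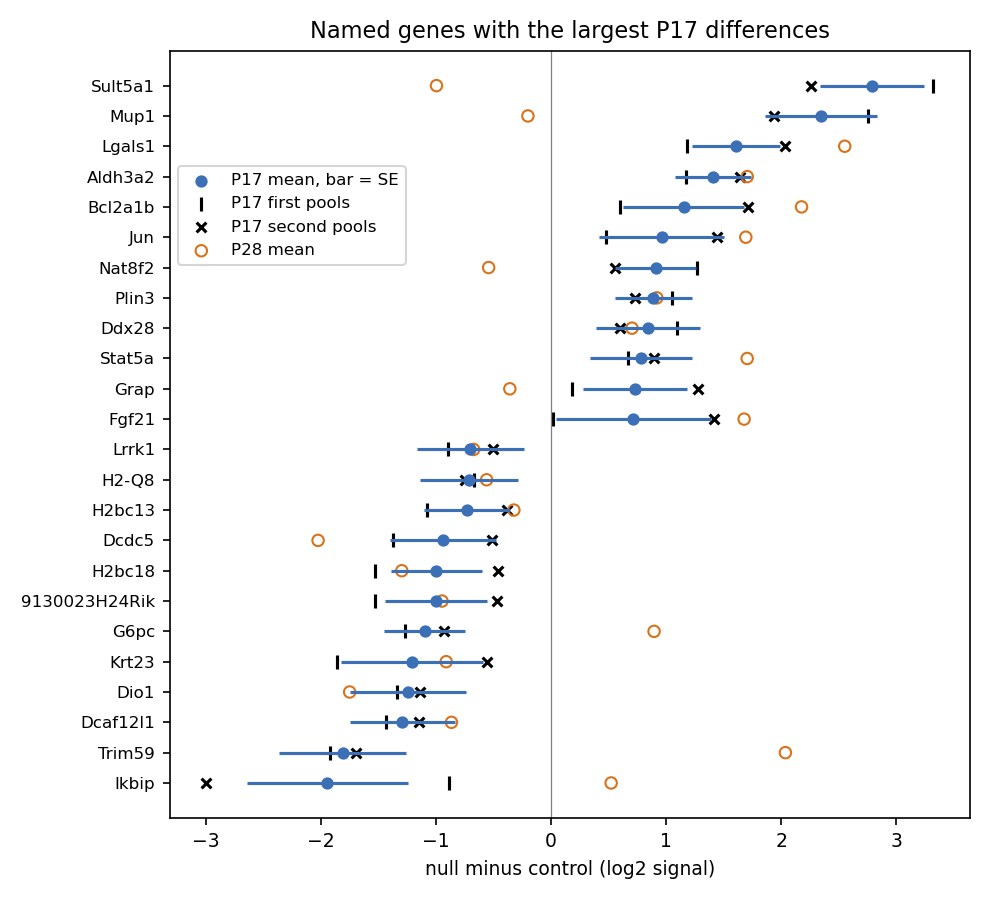
Null-minus-control difference in log2 signal for the 24 named genes with the largest P17 differences. Blue points with bars are the P17 mean and its SE, ticks and crosses the first and second P17 pools, and open orange points the P28 mean. Sult5a1 differed by 2.79 at P17 and lay below zero at P28, while Lgals1 differed by 1.61 and 2.55.

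Across the 19 gene lists, 22 of 412 genes had a named probe that was tested, in 11 lists, and none of their 23 probes was called. Over the 23 probes the median difference was 0.32, against -0.01 over all probes tested, with 12 higher and 5 lower in both pools and 6 of mixed sign. Lists and members were chosen with earlier results of these data known, so nothing is read from this median or these counts. The lists of the corepressor complex, lipogenesis and sterol synthesis, bile acids, plasma proteins, acute phase, amino acids and urea cycle, stellate cells and endothelium had no named member, so those pathways were not analysed here. The PPAR alpha list had 2 of 24 genes measured (median 1.06), the xenobiotic and steroid enzymes 4 of 39 (median 0.10) and the growth hormone axis 3 of 21 (median 0.78). The lipid droplet, gluconeogenesis, cell cycle and stress lists had 1 gene each (Plin3, G6pc, Trim59 and Jun).

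At P28 the same test called 131 probes (0.408%), 83 higher and 48 lower, and the differences had a standard deviation of 0.84 across the 12595 probes, against 0.61 at P17. The ages share no pool, although both tests draw on 1 estimate of the spread. Of the 15 probes called at P17, 5 were called at P28 as well, all of them higher at both ages. This count was 0 without any single pool of the 8 and 0 with a block by run set, 1 on the deposited values, 2 with normexp and 59 over probes above the detection level. The count was 3 with 75th percentile scaling and with either technical replicate alone, 4 with a block by pool number and 5 with an offset. It was 34 over probes above the level by their mean, 61 with trend and robust and 87 on unaveraged arrays. With only the pools of the age it was 0. The 5 probes called at both ages as reported make up 33.3% of the P17 list and 3.82% of the P28 list. The 5 were mCG129928.1, mCG129934.1, mCG133283, mCG142672 and mCG23510.1, with log2 rises of 3.90 to 5.98 at P17 and 2.18 to 4.87 at P28. The probes mCG129928.1 and mCG129934.1 rose by 5.98 and 5.41 at P17 and by 4.87 and 4.84 at P28, and mCG133283 by 3.90 and 3.84.

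The other 8 probes that rose at P17 differed by -2.23 to 1.07 at P28, 4 of them above and 4 below zero, and none was called there. Among those above zero, mCG144846 was not well above background in either P28 group, so its direction there is not measured. The test of the difference between ages called no probe in limma (smallest adjusted p = 0.061, while 1499 probes, or 4.67%, had an unadjusted p under 0.05). Its smallest adjusted p was shared by mCG18625, whose control arrays at P17 were not well above background, so that the size of its difference is not measured, and mCG148051 (-6.89, SE 0.62). For the remaining called probes it lay between 0.146 and 1.

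Among the named genes, Lgals1 was called at P28 (2.55, SE 0.38, limma adjusted p = 0.049) and differed between the ages by 0.94 (SE 0.54). Aldh3a2 differed by 1.70 at P28 and 1.41 at P17, and Plin3 by 0.92 and 0.89, differences between the ages of 0.29 (SE 0.47) and 0.03 (SE 0.47). Wfdc2 and Dpp9, a cytosolic dipeptidyl peptidase, were called at P28 (3.91 and -2.68, limma adjusted p = 0.048 and 0.034) and differed at P17 by 0.17 and 0.15. Their differences between the ages were 3.74 (SE 0.83) and -2.83 (SE 0.50), with adjusted p = 0.551 and 0.331. In P28 control liver Wfdc2 was over the detection level on 1 of 3 arrays. Sult5a1 had means of 11.42 in P17 control, 14.21 in P17 null, 14.21 in P28 control and 13.21 in P28 null liver, and its difference between the ages was -3.78 (SE 0.64, adjusted p = 0.331). The means of Mup1 were 12.98, 15.32, 20.58 and 20.38 in that order, so both P28 groups lay far above both P17 groups (difference between the ages -2.55, adjusted p = 0.799). G6pc had means of 18.69, 17.59, 15.95 and 16.85, lower in null liver at P17 and higher at P28 (1.99, SE 0.49, adjusted p = 0.677). Of the 12 higher named genes 8 were also higher at P28, and of the 12 lower genes 9 were also lower. Among the probes over the detection level at P17, 63.1% had the same direction at P28, 64.4% of the higher and 62% of the lower.

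The count of changed probes at P17 fell from 15 to 5 or fewer without any single pool of the 8 (lowest count 0). The count was 0 when the fit held only the P17 pools, which left fewer residual degrees of freedom (1780 probes with an unadjusted p under 0.05 in limma). From 15 it rose to 117 over probes above the detection level on every array of a P17 group. That filter can be reached through the group where a probe is high. The count was 56 over probes whose mean over all 12 arrays lay above the level. The first of these filters also called Sult5a1 (limma adjusted p = 0.041).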

How the data were processed

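Liver RNA pools were hybridised to single-colour ABI1700 arrays, per the labels. The authors deposited a value table of intensity on a linear scale. Its arrays had near-identical distributions within each of 3 run sets of 4 arrays, and the sets were defined by this likeness. The sources used here name no software that brought the arrays to a common distribution. Per the file headers, the scanner exports also hold a signal-to-noise score for each spot. Their columns carry no sample name, so the score was used only pooled over all arrays and the other 40 scanner columns were not used.

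Intensities were quantile-normalized over 12 arrays, raised to the 5th percentile (174.7) and converted to log2, and the duplicate arrays of a first pool were averaged. Of 33012 probes, 892 that had an empty pool or did not exceed that 5th percentile on any array were left out, and 32120 were tested. The test was limma 3.58.1 in R 4.3.3, a two-sided moderated fit of 4 groups to 8 pools with 4 residual degrees of freedom and Benjamini-Hochberg adjustment over all probes tested and a threshold of 0.05. The test was tried on simulated pools without any pool or run-set effect, so that trial does not cover such differences in these data. The detection level, 892 or 9.80 on the log2 scale, was set so that 58.6% of values fall under it, the percentage of scanner scores under 3.

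Probes were paired with symbols of the RefSeq table for GRCm38.p6: 311 by unversioned transcript accession and 5 by synonym, none with several genes. Named genes are the 12 largest rises and the 12 largest falls with 1 sign in both pools among named probes over the detection level in a P17 group, up to 4 measured members of each of 19 gene lists, and the 5 with the largest test statistic for a difference between ages. Of called probes without a symbol, the 2 largest rises and the 2 largest falls were to be given; identifiers beyond these were chosen after their values were seen. Members and lists were chosen with earlier results of these data known. Alternatives covered normalization, background correction, dim probes, duplicates, blocks, moderation and leaving out pools.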

Additional observations from a re-analysis of the deposited data

Results flagged for a closer look

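For 6 named genes and 4 called probes, null minus control had 1 sign in both P17 pools and the opposite sign in both P28 pools. The same holds for 15.4% of the probes over the detection level at P17. The test of the difference between ages called none of the 10 (limma adjusted p from 0.061 to 1).

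The differences between ages, P28 minus P17, were -7.27 for mCG18625, -6.89 for mCG148051, -5.39 for mCG22899.2 and -5.18 for mCG6112.2, each higher in null liver at P17 and lower at P28. Among named genes the difference was -3.78 for Sult5a1, -2.83 for Dpp9, -1.45 for Nat8f2 and -1.09 for Grap in the same sense, and 1.99 for G6pc and 3.85 for Trim59 in the other. The 3 P17 control arrays of mCG18625 lie under the detection level, so -7.27 is not a measured size, and with those arrays raised to the level it is -6.55. The P17 values of Dpp9 (0.15 and 0.14) lie within 1 SE of zero. So do the P28 differences of mCG18625 (-0.43, SE 0.47) and Grap (-0.36, SE 0.45). No P28 control array was over the detection level for Trim59, so its size is uncertain.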

How the results depend on the processing

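Counts are given in the order changed at P17, changed at P28 and different between ages, and were 15, 131 and 0 as reported. They were 2, 12 and 0 on the deposited values, 10, 93 and 0 with 75th percentile scaling, 7, 92 and 0 with normexp, 16, 166 and 3 with an offset in place of the floor, 10, 69 and 0 with technical replicate 1 alone and 9, 82 and 0 with technical replicate 2 alone. Over probes above the detection level they were 117, 655 and 15, by the mean over all arrays 56, 379 and 0, with eBayes trend and robust 126, 409 and 39, and on unaveraged arrays, with a random block for pools, 195, 605 and 73. The run set as a block gave 0, 5 and 0 (2609 probes with an unadjusted p under 0.05 at P17 in limma). The fits of only the pools of the age gave 0 and 0 (1780 and 2173). Each of these fits had fewer residual degrees of freedom. Leaving out 1 pool gave 0 to 5, 0 to 28 and 0 (904 to 1539 probes with an unadjusted p under 0.05 at P17); the lone pool was assumed to vary like the others. The cause of the other shifts was not tested.

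The labels do not say that pool numbers pair the groups. The first-minus-second-pool deviations of P17 control and null liver correlated with r = 0.761 over 12595 probes. The replicate block by pool gave 5, 247 and 2, with all 5 among the 15 and with fewer residual degrees of freedom. Named genes called at P17 numbered 0 as reported, 1 above the detection level (Sult5a1) and 2 each with trend and robust and on unaveraged arrays (Sult5a1 and Mup1). The share of probes with 1 sign in both pools was 72.5%, and 71.5% with technical replicate 1 alone. None of the 311 values of the 15 called probes under alternatives changed sign, and the smallest was 3.06 in size. The 15 were picked by the test for large differences on these same pools, so nothing is read from their kept sign. Among named genes, 12 of 710 values changed sign. Ear1 was -0.0077 with technical replicate 1 alone and Lst1 0.0044 with technical replicate 2 alone. Without 1 pool, Ear1 ran from -0.26 to 0.32, Lst1 from -0.22 to 0.030, Stat5b from -0.48 to 0.53, Wfdc2 from -0.25 to 0.59, Hba-a1 from -0.13 to 0.37, Hsd3b4 from -1.79 to 0.35 and the second Cebpb probe from -0.14 to 0.73. Others kept their sign but moved widely, Jun from 0.17 to 1.74, Grap from 0.15 to 1.31, Fgf21 from 0.22 to 1.21, Krt23 from -2.12 to -0.29, Lrrk1 from -1.17 to -0.23, Dcdc5 from -1.56 to -0.33, 9130023H24Rik from -1.61 to -0.39 and Ikbip from -2.86 to -1.02.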
